A study of Paralichthys olivaceus with 6 samples.

Results

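Of 24395 genes counted in hindbrain RNA of the olive flounder, a flatfish reared for food (Paralichthys olivaceus), 43 carried a symbol of the solute carrier families that move ions and metals: slc4, 8, 9, 11, 12, 20, 24, 26, 30, 31, 34, 39, 40 and 41. They were chosen by the name of their row in the count tables and not by any value, though with earlier results of these data known. Rows of the slc11 and slc34 families stood only under LOC numbers, so none is among the 43. Of the 43, 40 encode transporters, while slc9a3r1 and slc9a3r2 encode PDZ scaffolds that bind a sodium-proton exchanger and slc4a1ap encodes kanadaptin, an adaptor protein that binds an anion exchanger. These 3 are kept in the counts because the names match, and are described apart.

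RNA-seq read counts were available for 3 libraries titled bold and 3 titled shy, made from hindbrains of fish of 101.06 ± 6.39 g (mean ± SD) kept at 18 °C with 12 h of light a day. No treatment, strain, age or genotype is given for either group, and the labels give 1 rearing description for both. The comparison asks how hindbrain expression differs between fish sorted by personality, by a method the labels cite and do not describe, and the series' title also names oxygen metabolism. The title and source name of every library give the opposite personality from its characteristic, so the names titled bold and titled shy are used here, and every direction below turns round if the characteristic is right. RNA of 6 individuals is mentioned, but not whether a library holds 1 fish or a pool, so a p-value here reflects the spread between libraries alone, which may be technical.

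Ion transporters of these families use the gradients set up by pumps, or exchange one ion for another. Bicarbonate carriers and sodium-proton exchangers set the pH inside and outside neurons and glia. Cation-chloride cotransporters set the chloride level that decides which way GABA and glycine push a neuron, and sodium-calcium exchangers remove calcium after firing. In the zinc families, most ZnT proteins (slc30) move zinc out of the cytosol and ZIP proteins (slc39) bring it in. The copper, iron and magnesium carriers supply enzymes with their metals. Sequences of these genes were not used here.

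Library totals lay between 18081694 and 22805563 counts, and the 43 genes took between 0.169% and 0.183% of each. Levels are given as CPM, read counts scaled to a common library size after TMM normalization, so that 3 counts correspond to between 0.132 and 0.174 CPM. CPM also grows with transcript length, for which no value was used here, so levels are compared between libraries of 1 gene and not between genes. Markers of the labelled tissue varied in level. Of 10 hindbrain and spinal cord genes found, 2 averaged 10 CPM or more, the highest at 21.8 CPM, and 1 from 1 to under 10 CPM. The other 7 averaged below 1 CPM. Among these, phox2a had no read, hoxa2 had 42 reads, hoxb3a 7 and hoxa4a 5 over all 6 libraries. The 10 together summed to between 34.2 and 58.4 CPM per library. Neuronal markers summed to between 6086 and 8817 CPM per library. In such bulk tissue, fewer cells of a type and less RNA per cell cannot be told apart.

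**Figure D1:**
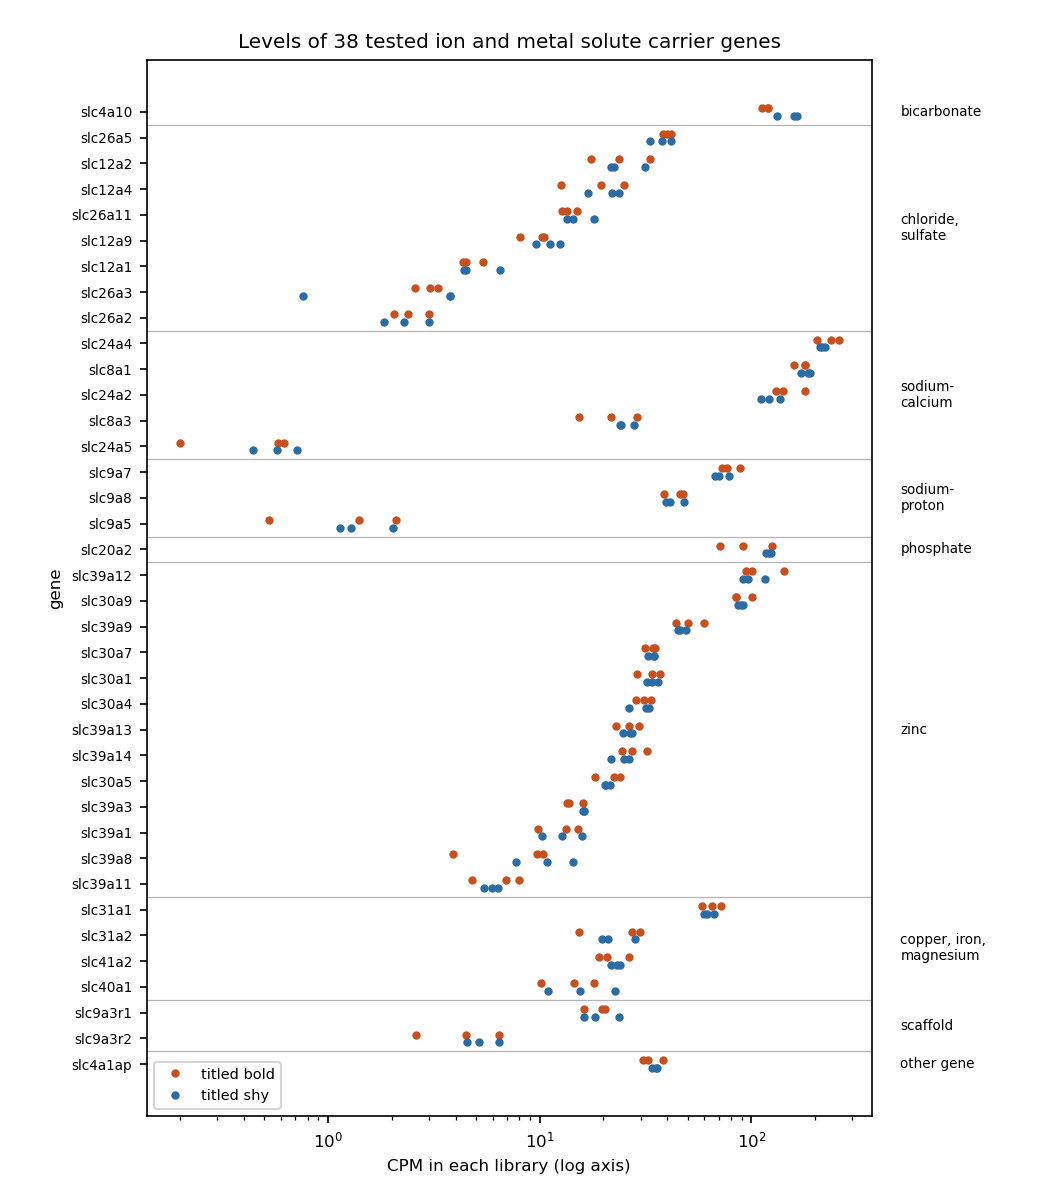
CPM of 38 of the 39 tested genes in each of 6 libraries on a log axis, 3 titled bold (upper points of each row) and 3 titled shy (lower points), grouped by the ion carried. The points of the 2 groups overlap in every row except slc4a10, and genes cannot be ranked against each other because transcript lengths differ.

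Mean levels reached 100 CPM in 6 of the 43 genes, 25 lay from 10 to under 100 CPM, 7 from 1 to under 10 CPM and 5 below 1 CPM. Reads were found for every gene, but 4 had too few to pass the filter of the main test. These were the kidney sodium-chloride cotransporter gene slc12a3 with 2 reads in all, the intestinal zinc importer gene slc39a4 with 4, the rod exchanger gene slc24a1 with 13 and the epithelial chloride channel gene slc26a9 with 38. The other 39 genes were tested.

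None of the 39 tested genes passed edgeR's quasi-likelihood test with p-values adjusted by Benjamini and Hochberg at 0.05, which called 0% of the 19755 genes tested. Among the 39 the lowest adjusted p was 0.955. DESeq2 called 0 of the 39 as well, but gave no adjusted p for slc24a5 and slc9a5. Its background was 0.0607% of all tested genes, counting those without an adjusted p. At an unadjusted p under 0.05 edgeR gave 1 gene, slc4a10, which is 2.56% of the 39, where the background over all tested genes was 3.49%, made up of 1.74% higher and 1.75% lower in titled bold libraries. The 2 groups of libraries did not overlap in the same 1 gene, against 9.53% of all tested genes, made up of 4.53% higher and 5% lower in titled bold libraries. Folds are given as log2 of titled bold over titled shy, with an SE. Over the 39 genes the median was -0.02, with 18 above 0 and 21 below, and over all tested genes it was -0.01. No gene of the 39 had a fold of 0.5 or more in either direction on the log2 scale, a size reached by 10.3% of all tested genes. The median SE of the fold was 0.155 for these genes and 0.199 for all.

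**Figure D2:**
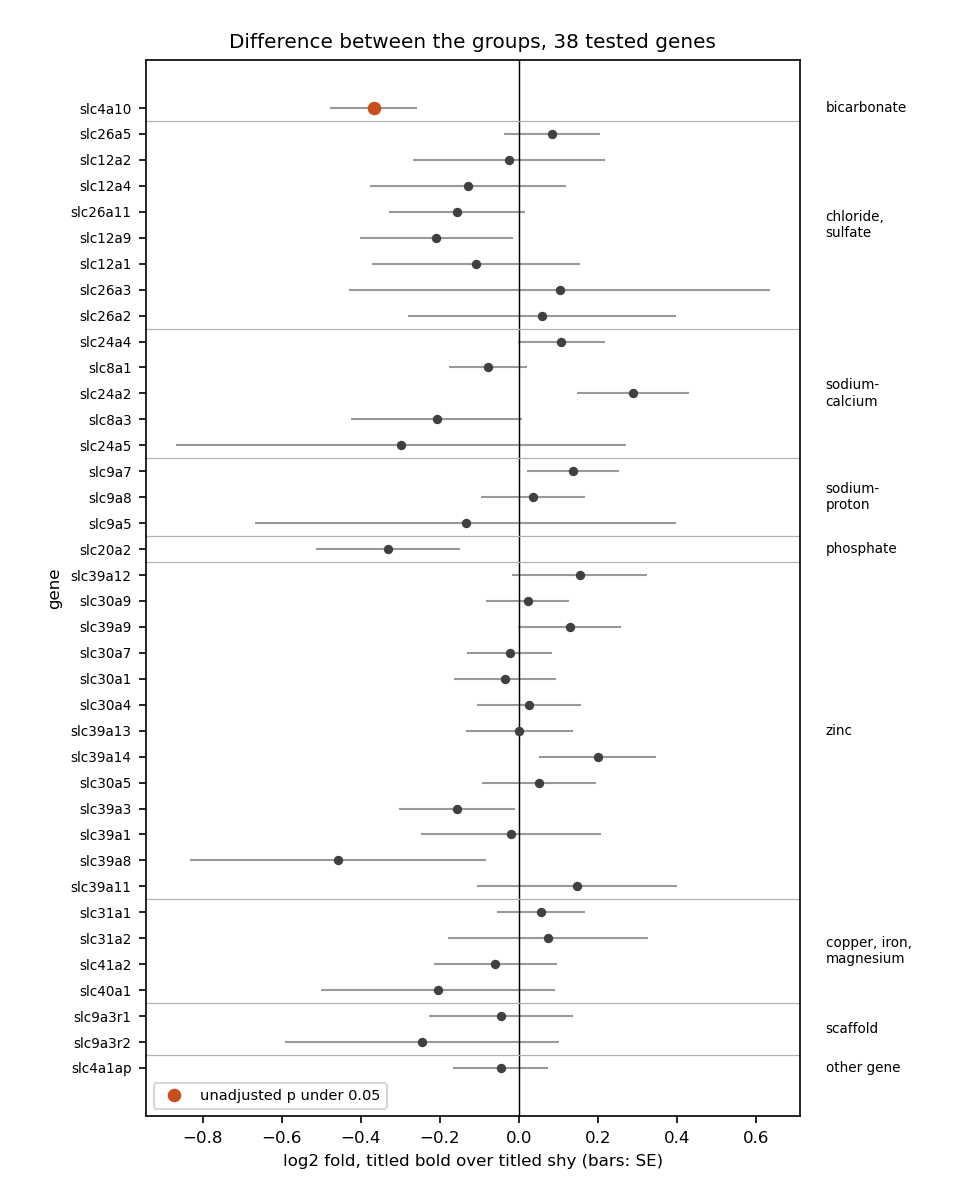
Log2 fold of titled bold over titled shy for 38 of the 39 tested genes, with bars for the SE, grouped by the ion carried. The folds lie between -0.46 and 0.29, and only slc4a10 has an unadjusted p under 0.05 (coloured point).

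The bicarbonate group held 1 gene under its symbol, as the chloride-bicarbonate exchanger gene slc26a3 is counted with the chloride and sulfate carriers. The gene of the bicarbonate group, slc4a10, encodes a sodium-dependent bicarbonate transporter that neurons and choroid plexus express in mammals. It had 113, 120.3 and 119 CPM in libraries titled bold, against 159, 131 and 164 CPM in libraries titled shy. All 3 titled bold libraries lay close together and below the lowest titled shy library. The means were 117 ± 4.12 CPM in titled bold and 152 ± 17.6 CPM in titled shy libraries (SD, n = 3 each), a log2 fold of -0.37 ± 0.11 (SE) with an edgeR unadjusted p of 0.00968 and an adjusted p of 0.955. Without titled shy 3 the unadjusted p was 0.0609 and the fold -0.29, the smallest in size of the fits that left out 1 library.

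Markers of neurons, and of choroid plexus counted together with meninges, had sums that overlapped between the groups. Summed over 9 genes of choroid plexus and meninges, none of them at 0, the level ran from 274 to 399 CPM in titled bold and from 197 to 391 CPM in titled shy libraries, and 8 of these 9 genes had a log2 fold above 0. Summed over 7 neuronal genes, none at 0, it ran from 6182 to 8817 CPM in titled bold and from 6086 to 6381 CPM in titled shy libraries. The highest of the 7 averaged 4236 CPM, so the neuronal sum mostly reflects 1 gene. Of the 9 genes, 1 (11.1%) had an edgeR unadjusted p under 0.05, against 3.49% of all tested genes. Its p was 0.0234, with an adjusted p of 0.955, and it was higher in titled bold libraries. Groups did not overlap for 1 of the 9 (11.1%) and for 2 of the 7 neuronal genes (28.6%), against 9.53% of all tested genes. All of these were higher in titled bold libraries. Of the 7 neuronal log2 folds, 4 were above 0 and 3 below. The list of 9 does not separate choroid plexus from meninges, and the part of any of these cell types in the slc4a10 difference was not tested.

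Other bicarbonate carriers stood in the tables under LOC numbers and were named from RefSeq, so they fall outside the 43 and are named here after their values were seen. The sodium-driven exchanger gene slc4a8, which acts at nerve terminals in mammals, averaged 85.9 ± 2.98 CPM in titled bold and 88.4 ± 5.64 CPM in titled shy libraries. NBCe1, the cotransporter of astroglia in mammals, is encoded by slc4a4a, which averaged 383 ± 42.6 CPM in titled bold and 378 ± 50.8 CPM in titled shy libraries. Both had overlapping groups, with log2 folds of -0.04 ± 0.10 and 0.02 ± 0.13 (SE). Groups overlapped too for the other tested slc4 genes under LOC numbers, some of which had larger folds. Their log2 folds were -0.69 ± 0.53 for slc4a2b, -0.24 ± 0.44 for slc4a11, -0.12 ± 0.25 for slc4a3, 0.14 ± 0.28 for slc4a2a and 0.52 ± 0.39 for slc4a1a. The ratio of slc4a10 to slc4a8 within a library was 1.26, 1.42 and 1.42 in titled bold, against 1.70, 1.60 and 1.83 in titled shy libraries. The level of slc4a8 varied little, with a coefficient of variation of 4.87% over the 6 libraries. These ratios therefore mostly repeat the slc4a10 levels, whose groups did not overlap, and are no separate evidence. Whether slc4a10 differs from its relatives was not tested.

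Genes named as carbonic anhydrases, a family whose active enzymes make bicarbonate, are another 14, not all of which encode active enzymes. Of the 14, 12 were tested, 0 were called and 0 had an unadjusted p under 0.05. The median log2 fold of the 12 was 0.07, with 7 above 0 and 5 below. The smallest p belonged to the membrane-bound enzyme gene ca14, at 36.1 ± 7.43 CPM in titled bold and 31.1 ± 1.93 CPM in titled shy libraries, with an edgeR unadjusted p of 0.216 and an adjusted p of 0.955.

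Chloride and sulfate carriers numbered 10, of which 8 were tested. They had a median log2 fold of -0.07, with 3 above 0 and 5 below. NKCC1, the cotransporter that loads cells with chloride, is encoded by slc12a2. It had 33.1, 17.5 and 23.7 CPM in titled bold libraries, against 31.5, 22.5 and 21.7 CPM in titled shy libraries. The libraries numbered 1 were the highest of both groups and titled bold 2 was the lowest of all 6. The means of slc12a2 were 24.8 ± 7.84 and 25.2 ± 5.42 CPM in titled bold and titled shy libraries (SD, n = 3 each), with a log2 fold of -0.03 ± 0.24.

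KCC1, a potassium-chloride cotransporter of many tissues, is encoded by slc12a4, and it too was lowest in titled bold 2. Its levels were 25.0, 12.6 and 19.4 CPM in titled bold and 16.9, 22.0 and 23.7 CPM in titled shy libraries. The distant family member slc12a9 had the smallest p of the chloride group with slc26a11 next. The level of slc12a9 averaged 9.59 ± 1.32 CPM in titled bold and 11.1 ± 1.46 CPM in titled shy libraries, a log2 fold of -0.21 ± 0.19 with an edgeR unadjusted p of 0.312 and an adjusted p of 0.955. Without titled bold 2 that fold was -0.10, and without titled shy 1 it was -0.11. The kidney cotransporter gene slc12a1 (NKCC2) was low, at 4.74 ± 0.558 CPM in titled bold and 5.12 ± 1.18 CPM in titled shy libraries. Summed over 5 markers of kidney and gut epithelium, the level ran from 10.05 to 11.1 CPM in titled bold libraries. In titled shy libraries that sum ran from 10.9 to 16.6 CPM. None of the 5 markers was at 0 over all libraries, but 2 averaged below 1 CPM and the highest averaged 8.73 CPM. The part of this sum in the slc12a1 values was not tested.

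KCC2, the neuronal cotransporter that lowers chloride and so opposes NKCC1, is encoded by slc12a5a, which stands under a LOC number outside the 43 genes. It had 173, 57.5 and 99.2 CPM in titled bold, against 163, 118 and 130.4 CPM in titled shy libraries. Titled bold 1 was thus the highest and titled bold 2 the lowest library, as for slc12a2. The ratio of slc12a2 to slc12a5a within a library was 0.191, 0.304 and 0.239 in titled bold, against 0.193, 0.191 and 0.167 in titled shy libraries. Titled bold 2 and 3 had the highest ratios, and titled bold 1 lay among the titled shy libraries. Another cotransporter row under a LOC number, slc12a7b for KCC4, had 7.37 ± 2.61 CPM in titled bold and 11.8 ± 0.925 CPM in titled shy libraries, a log2 fold of -0.68 ± 0.27 with an edgeR p of 0.0359 and an adjusted p of 0.955. Its groups did not overlap, the only such case among 28 tested rows of these families under LOC numbers. That is 3.57% of the 28, against 9.53% of all tested genes.

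Of the kinase network that switches these cotransporters, which includes WNK kinases and the kinase genes stk39 and oxsr1b, 11 genes were tested and 0 were called, with 0 at an unadjusted p under 0.05. The median log2 fold of the 11 was -0.00, with 5 above 0 and 6 below. The ubiquitin ligase adaptor gene klhl3, which targets WNK kinases in mammals, was the 1 gene of the 11 whose groups did not overlap, at 29.9 ± 1.77 CPM in titled bold and 27.3 ± 0.607 CPM in titled shy libraries. That is 9.09% of the 11, near the 9.53% of all tested genes. The kinase gene wnk2 had 61.5, 16.1 and 39.5 CPM in titled bold and 49.3, 43.1 and 50.0 CPM in titled shy libraries, again with titled bold 1 highest and titled bold 2 lowest.

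Among the slc26 anion carriers, slc26a5 encodes prestin, the motor protein of outer hair cells in mammals. It had 41.9, 38.0 and 39.9 CPM in titled bold, against 33.2, 41.9 and 37.9 CPM in titled shy libraries. This level was even across libraries, with a coefficient of variation of 8.40% over all 6, and its groups overlapped. Summed over 4 markers of hair cells and ear, the level ran from 12.2 to 28.8 CPM in titled bold libraries. In titled shy libraries that sum ran from 16.3 to 27.2 CPM. None of the 4 markers was at 0 over all libraries, but 3 averaged below 1 CPM. The other averaged 20.4 CPM, so the sum mostly reflects 1 gene. The part of this sum in the slc26a5 values was not tested. The lysosomal anion carrier gene slc26a11 had 13.7 ± 1.20 CPM in titled bold and 15.3 ± 2.40 CPM in titled shy libraries. The sulfate carrier gene slc26a2 had 2.48 ± 0.491 and 2.38 ± 0.585 CPM in titled bold and titled shy libraries.

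One library stood apart for the chloride-bicarbonate exchanger gene slc26a3, which works in the intestine of mammals. The gene had 2.58, 3.02 and 3.29 CPM in titled bold, against 3.75, 3.76 and 0.757 CPM in titled shy libraries. Titled shy 3 was 4.96-fold below the highest library, while the other 5 lay between 2.58 and 3.76 CPM. The fold of slc26a3 was 0.10 ± 0.53 with all libraries and -0.32 without titled shy 3, so its direction rests on that library.

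Sodium-calcium exchangers numbered 6, of which 5 were tested, with a median log2 fold of -0.08, 2 above 0 and 3 below. The neuronal potassium-dependent exchanger gene slc24a2 (NCKX2) had the smallest p of the group. It had 142, 179.6 and 131 CPM in titled bold, against 137, 111 and 122 CPM in titled shy libraries. Titled bold 2 and 1 were highest, and titled bold 3 lay below titled shy 1, so the groups overlapped. The means were 151 ± 25.6 CPM in titled bold and 123 ± 13.1 CPM in titled shy libraries (SD, n = 3 each), a log2 fold of 0.29 ± 0.14 with an edgeR unadjusted p of 0.0734 and an adjusted p of 0.955. Without titled bold 2 the fold was 0.14, a change of more than 1.5 times for a gene that was not called. A LOC row that RefSeq also names slc24a2 had 13 reads in all, and a LOC row that it names slc24a5 had 0. Whether such a row and the row under the symbol stand for the same gene was not tested.

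The related exchanger gene slc24a4 (NCKX4) had 204, 258 and 237 CPM in titled bold, against 211, 222 and 216 CPM in titled shy libraries. Its titled bold libraries spanned a wider range than its titled shy libraries and enclosed it. For slc8a1, which encodes the sodium-calcium exchanger NCX1, levels were 159, 179.8 and 178 CPM in titled bold and 189, 186 and 172 CPM in titled shy libraries. This was among the steadiest of the 39 genes, with a coefficient of variation of 5.99%. The brain and muscle exchanger gene slc8a3 (NCX3) had 28.7, 15.3 and 21.8 CPM in titled bold, against 27.9, 23.9 and 24.3 CPM in titled shy libraries, with titled bold 2 again the lowest.

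The pigment cell exchanger gene slc24a5 passed the filter with 65 reads in all. It had 0.621, 0.581 and 0.199 CPM in titled bold, against 0.441, 0.574 and 0.710 CPM in titled shy libraries, from between 4 and 15 reads per library. Summed over 7 pigment cell markers, the level ran from 3.95 to 14.7 CPM in titled bold and from 8.66 to 15.8 CPM in titled shy libraries. None of the 7 was at 0 over all libraries, but 5 averaged below 1 CPM and the highest averaged 5.01 CPM. The part of this sum in the slc24a5 values was not tested.

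A sodium-calcium exchanger known from fish, slc8a4a, stands under a LOC number and took 171545 reads, with 1098, 1644 and 1489 CPM in titled bold, against 1309, 1352 and 1424 CPM in titled shy libraries. Its groups overlapped as well. Of 14 tested genes of calcium pumps, calcium buffers and the mitochondrial calcium uniporter, 0 were called and 0 had an unadjusted p under 0.05, and the median log2 fold was -0.04, with 5 above 0 and 9 below. Only the mitochondrial sodium-calcium exchanger gene slc8b1 had groups that did not overlap, at 5.999 ± 1.02 CPM in titled bold and 8.34 ± 0.662 CPM in titled shy libraries, a log2 fold of -0.47 ± 0.22 with an edgeR unadjusted p of 0.0594 and an adjusted p of 0.955. That 1 gene is 7.14% of the 14, where 9.53% of all tested genes had such groups.

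Sodium-proton exchangers numbered 4, all tested, with a median log2 fold of 0.04, 3 above 0 and 1 below. NHE7, which adjusts the pH of the trans-Golgi network, is encoded by slc9a7. Its levels were 76.9, 88.4 and 72.4 CPM in titled bold and 78.6, 67.1 and 70.4 CPM in titled shy libraries. The gene was highest in titled bold 2, with overlapping groups and a log2 fold of 0.14 ± 0.12. Leaving out titled bold 2 made it 0.051, leaving out titled shy 2 made it 0.088, and leaving out titled shy 1 made it 0.21. The Golgi exchanger gene slc9a8 (NHE8) averaged 43.9 ± 4.81 CPM in titled bold and 42.9 ± 4.74 CPM in titled shy libraries.

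By contrast the plasma membrane exchanger of brain, NHE5, had few reads under slc9a5 and varied more between libraries than any other of the 39 genes, with a coefficient of variation of 41.8%. It had 2.10, 0.523 and 1.40 CPM in titled bold, against 2.03, 1.28 and 1.14 CPM in titled shy libraries. The libraries numbered 1 were again the highest and titled bold 2 the lowest. The scaffold gene slc9a3r2 (NHERF2) had 6.40, 2.61 and 4.49 CPM in titled bold, against 6.39, 4.51 and 5.16 CPM in titled shy libraries, with the same libraries at its ends. Its relative slc9a3r1 (NHERF1) averaged 18.7 ± 2.27 CPM in titled bold and 19.3 ± 3.86 CPM in titled shy libraries.

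Of 16 tested genes for other sodium-proton and chloride proteins, among them the chloride transporters of the clcn family and the volume-regulated anion channel genes lrrc8a and lrrc8c, 0 were called and 0 had an unadjusted p under 0.05. The median log2 fold of the 16 was -0.14, with 2 above 0 and 14 below, where 48.3% of all tested genes were above 0. These folds come from the same 6 libraries and are not independent, and their shared direction was not tested. Groups did not overlap for the endosomal transporter genes clcn5b, at 12.4 ± 3.88 CPM in titled bold and 16.1 ± 0.783 CPM in titled shy libraries, and clcn6, at 20.7 ± 4.70 and 25.2 ± 1.37 CPM in titled bold and titled shy libraries. In both, titled bold 2 was the lowest library, at 7.96 CPM for clcn5b and 15.3 CPM for clcn6. These 2 genes are 12.5% of the 16, against 9.53% of all tested genes.

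Phosphate uptake was represented by slc20a2, for the sodium-phosphate cotransporter PiT2. It had 125, 71.3 and 91.4 CPM in titled bold, against 121, 117 and 124 CPM in titled shy libraries. The titled shy libraries agreed closely, while titled bold 1 was the highest and titled bold 2 the lowest of all 6. The means were 95.9 ± 27.2 CPM in titled bold and 121 ± 3.28 CPM in titled shy libraries (SD, n = 3 each), a log2 fold of -0.33 ± 0.18 with an edgeR unadjusted p of 0.105 and an adjusted p of 0.955. Without titled bold 1 the log2 fold was -0.55, with an edgeR unadjusted p of 0.00193 and an adjusted p of 0.360. Without titled bold 2 the log2 fold was -0.16, so its size depended on those libraries. Under a LOC number, slc20a1b averaged 94.5 ± 4.68 CPM in titled bold and 95.5 ± 4.24 CPM in titled shy libraries. The log2 fold of slc20a1b was -0.01 ± 0.09, and that of slc20a1a, also under a LOC number, was 0.48 ± 0.53.

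**Figure D3:**
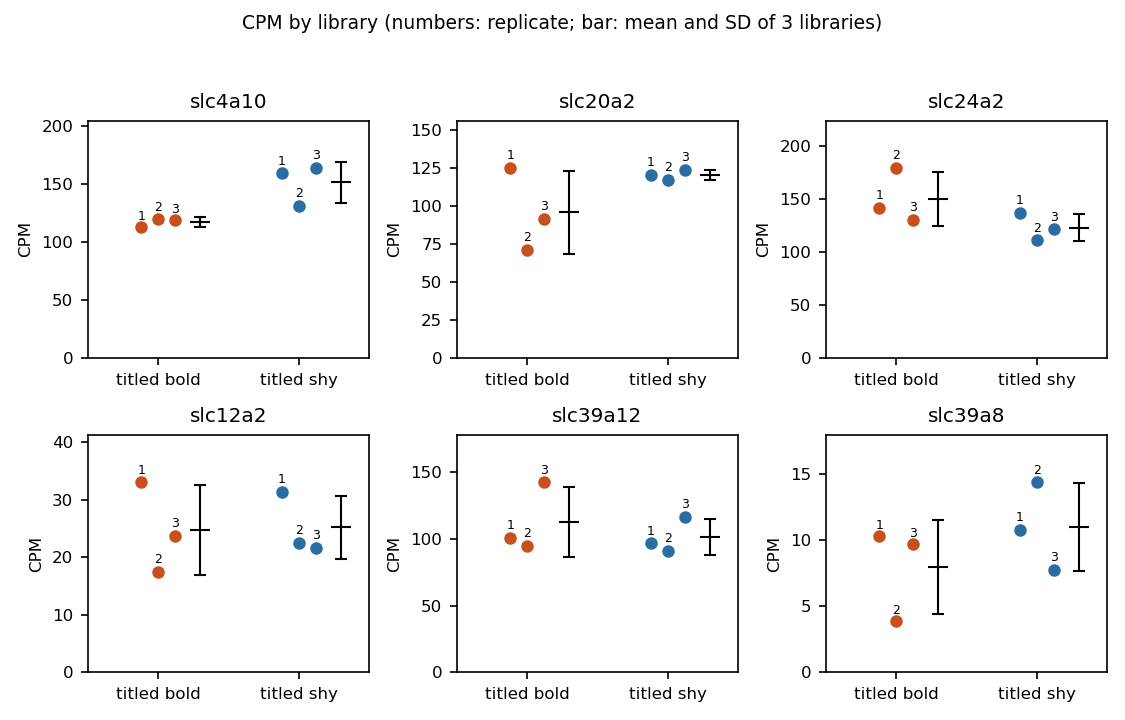
CPM of 6 genes in each library, titled bold left of titled shy, with replicate numbers beside the points and the mean and SD of 3 libraries as bars; each axis starts at 0. The groups are apart for slc4a10 (113 to 120.3 against 131 to 164 CPM), while titled bold 2 is the lowest library for slc20a2, slc12a2 and slc39a8 and the highest for slc24a2.

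Zinc carriers formed the largest group, with 14 genes, of which 13 were tested. Their median log2 fold was 0.02, with 8 above 0 and 5 below. The 5 slc30 genes that stand under their symbols varied little between groups and libraries. Their log2 folds ran from -0.04 to 0.05, and their coefficients of variation from 4.38% to 9.16%, where the median of all tested genes was 17.0%. Under LOC numbers, outside the 43 genes, 3 more slc30 genes were tested and varied more, with log2 folds of 0.24 ± 0.27 for slc30a2, 0.38 ± 0.50 for slc30a6 and -0.51 ± 0.38 for slc30a8 and coefficients of variation of 21.0%, 33.9% and 35.7% in the same order. The mitochondrial carrier gene slc30a9 had 84.9, 100.4 and 84.9 CPM in titled bold, against 89.1, 86.1 and 90.9 CPM in titled shy libraries. The Golgi carrier gene slc30a7 (ZnT7) was the steadiest of all 39 genes, between 31.3 and 34.9 CPM in titled bold and between 32.5 and 34.8 CPM in titled shy libraries. The plasma membrane exporter gene slc30a1 (ZnT1), which cells switch on when zinc is plentiful, averaged 33.2 ± 4.10 CPM in titled bold and 34.1 ± 2.08 CPM in titled shy libraries. The vesicular carrier gene slc30a4 averaged 30.98 ± 2.46 and 30.4 ± 3.48 CPM, and the early secretory carrier gene slc30a5 averaged 21.5 ± 2.93 and 20.8 ± 0.641 CPM, in titled bold and titled shy libraries in that order.

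Importers of the slc39 family spread more widely, with log2 folds of the 8 tested genes from -0.46 to 0.20 and coefficients of variation from 8.40% to 36.8%. The brain importer gene slc39a12 (ZIP12) had 101, 94.5 and 142 CPM in titled bold, against 96.5, 90.9 and 116 CPM in titled shy libraries. The libraries numbered 3 were the highest of each group. Its log2 fold of 0.15 ± 0.17, with an edgeR unadjusted p of 0.392, was -0.05 without titled bold 3, so its direction rests on that library.

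ZIP14 and ZIP8 import manganese as well as zinc. The ZIP14 gene slc39a14 had the smallest p of the zinc group, with 24.4, 32.2 and 27.3 CPM in titled bold, against 24.9, 21.7 and 26.5 CPM in titled shy libraries, a log2 fold of 0.20 ± 0.15 with an edgeR unadjusted p of 0.212 and an adjusted p of 0.955. Leaving out titled bold 1 gave a fold of 0.31, leaving out titled bold 2 one of 0.088, and leaving out titled shy 2 one of 0.12. The ZIP8 gene slc39a8 had 10.3, 3.89 and 9.72 CPM in titled bold, against 10.8, 14.4 and 7.76 CPM in titled shy libraries. Titled bold 2 was lowest and titled shy 2 highest, and the groups overlapped. Its log2 fold of -0.46 ± 0.37 was the largest in size of the 39 genes, had an edgeR p of 0.253 and was -0.13 without titled bold 2.

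The remaining zinc importers are named to account for each gene. The Golgi carrier gene slc39a9 averaged 51.1 ± 7.81 CPM in titled bold and 46.7 ± 1.92 CPM in titled shy libraries, and slc39a13, of the secretory pathway, 26.3 ± 3.36 and 26.2 ± 1.35 CPM in titled bold and titled shy libraries. The ZIP3 gene slc39a3 averaged 14.4 ± 1.44 CPM in titled bold and 16.1 ± 0.0783 CPM in titled shy libraries, with titled bold 2 at 16.1 CPM among the titled shy values. The ZIP1 gene slc39a1 averaged 12.7 ± 2.70 and 12.9 ± 2.78 CPM in titled bold and titled shy libraries, and slc39a11 averaged 6.57 ± 1.65 and 5.93 ± 0.434 CPM. None of these 5 had an edgeR p under 0.05.

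Copper, iron and magnesium carriers numbered 4, all tested. The median log2 fold was -0.00, with 2 above 0 and 2 below. The copper importer gene slc31a1 (CTR1) had 65.2, 72.0 and 58.6 CPM in titled bold, against 61.8, 66.5 and 60.005 CPM in titled shy libraries. Its groups overlapped within a narrow range, with a log2 fold of 0.06 ± 0.11. The endosomal copper carrier gene slc31a2 had 15.3, 29.6 and 27.4 CPM in titled bold, against 20.9, 28.2 and 19.6 CPM in titled shy libraries, and titled bold 1 was lowest. The magnesium carrier gene slc41a2 averaged 22.0 ± 3.90 CPM in titled bold and 23.0 ± 1.14 CPM in titled shy libraries. Under LOC numbers, outside the 43 genes, log2 folds were -0.55 ± 0.40 for slc11a2 and 0.17 ± 0.14 for slc41a1, both with overlapping groups.

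Ferroportin, the only known iron exporter of vertebrate cells, is encoded by slc40a1. It had 18.0, 10.2 and 14.5 CPM in titled bold, against 15.5, 22.8 and 10.9 CPM in titled shy libraries. Titled shy 2 was the highest and titled bold 2 the lowest library, the same ends as for slc39a8. The log2 fold of slc40a1 was -0.21 ± 0.30, and 0.11 without titled shy 2, so its direction rests on that library. Summed over 4 markers of microglia, the macrophages of the brain, none of them at 0, the level was 69.2, 46.5 and 63.4 CPM in titled bold, against 55.6, 98.4 and 48.1 CPM in titled shy libraries. Titled shy 2 was also the highest library for that sum. Titled bold 2 was the lowest, narrowly below titled shy 3, and was the lowest library for only 2 of the 4 markers. The part of microglia in the slc40a1 and slc39a8 values was not tested.

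Among 28 tested genes of metal handling, such as ferritins, transferrin receptors, copper chaperones and magnesium carriers of the cnnm family, 0 were called and 0 had an unadjusted p under 0.05. Their median log2 fold was 0.01, with 14 above 0 and 14 below. The zinc-binding metallothionein gene mt2 (under a LOC number) had 345, 356 and 391 CPM in titled bold, against 432, 403 and 440.2 CPM in titled shy libraries. All titled bold libraries lay below all titled shy libraries, at a log2 fold of -0.22 ± 0.10 with an edgeR unadjusted p of 0.0504 and an adjusted p of 0.955. The groups did not overlap for 2 more of the 28, the lysosomal cation channel gene mcoln1b, at 17.8 ± 3.92 CPM in titled bold and 22.9 ± 0.850 CPM in titled shy libraries, and cnnm3, at 105 ± 12.3 and 92.8 ± 3.00 CPM in titled bold and titled shy libraries. The 3 together are 10.7% of the 28, near the 9.53% of all tested genes.

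**Figure D4:**
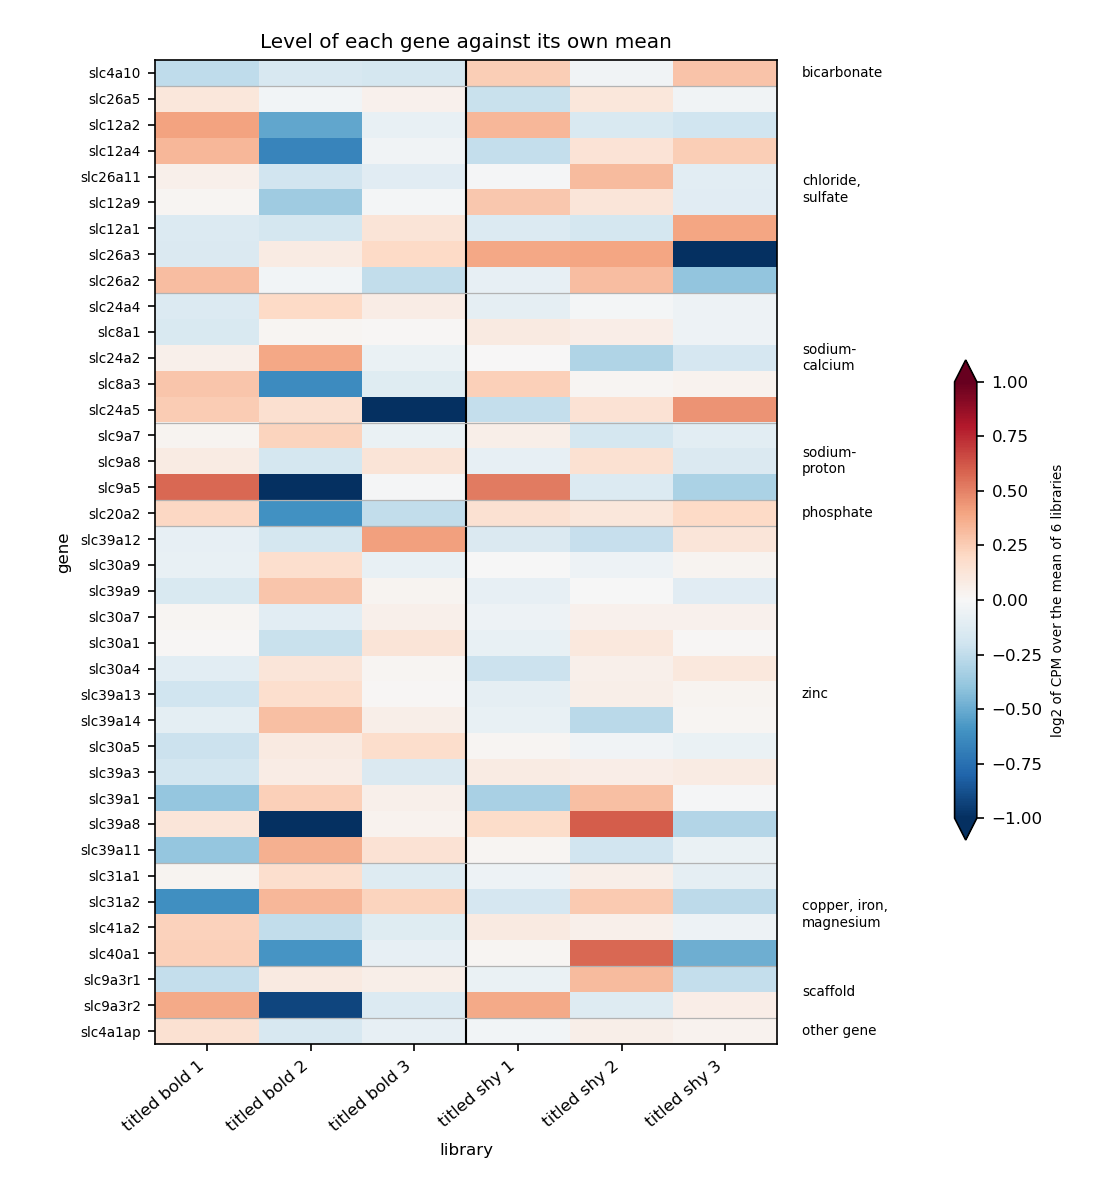
Level of 38 of the 39 tested genes in each library as log2 of its CPM over its mean of 6 libraries, titled bold columns left of titled shy, with colours capped at 1 in either direction. The columns of titled bold 1 and titled bold 2 show opposite colours in many rows, and the rows of the 5 slc30 genes are pale throughout.

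Single libraries stood at the ends of the range in many of the 39 genes. Titled bold 2 was the highest library for 12 genes and the lowest for 16, so it stood at an end for 71.8% of the 39, where it did so for 54.8% of all tested genes. Titled bold 1 stood at an end for 21 genes, or 53.8%, against 33.4% of all tested genes. In 14 of the 39 genes, or 35.9%, titled bold 1 and titled bold 2 were the opposite ends of the 6 libraries, against 16.4% of all tested genes. With titled bold 1 highest and titled bold 2 lowest there were 8, namely slc12a2, slc12a4, slc20a2, slc8a3, slc9a5, slc41a2, slc9a3r2 and slc4a1ap. The kanadaptin gene slc4a1ap had 38.3, 30.8 and 32.6 CPM in titled bold, against 33.8, 35.9 and 35.3 CPM in titled shy libraries. With titled bold 2 highest and titled bold 1 lowest there were 6, namely slc24a4, slc30a9, slc31a2, slc39a9, slc39a11 and slc39a13.

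Some markers of neural cells were also highest in titled bold 2. The neuronal sum was 8817 CPM in titled bold 2 and between 6086 and 6568 CPM in the other 5 libraries, but titled bold 2 was the highest library for only 3 of the 7 neuronal markers (snap25, stmn2 and stmn2a) and the lowest for elavl3. The sum of 8 oligodendrocyte markers was 3994 CPM in titled bold 2 and between 1991 and 2428 CPM in the others, with titled bold 2 highest for 6 of the 8 and lowest for mpz. The highest neuronal marker averaged 4236 CPM over the 6 libraries and the highest oligodendrocyte marker 1294 CPM, so each sum leans on 1 gene. The part of neurons and oligodendrocytes in the values of titled bold 2 was not tested. The coefficient of variation over the 6 libraries had a median of 14.4% among the 39 genes and 17.0% among all tested genes, and 15 of the 39, or 38.5%, were under 10%, against 22.1% of all tested genes. The 39 genes had a median level of 25.0 CPM and all tested genes one of 16.1 CPM, and the part of level in this variation was not tested.

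Rows under LOC numbers that RefSeq places in the same families numbered 41, of which 28 were tested, and edgeR called 0 of them. At an unadjusted p under 0.05 there was 1, slc12a7b, or 3.57%, with a background of 3.49%. A log2 fold of 0.5 or more in size was reached by 6 of the 28, or 21.4%, where 10.3% of all tested genes reached it. These 28 had a median log2 fold of -0.08, with 11 above 0 and 17 below. They varied more between libraries than the 39 genes, with a median coefficient of variation of 29.9% and 10.7% of them under 10%, at a lower median level of 9.62 CPM. Reads that fit more than 1 of these duplicated genes may have been divided or dropped in the counting, which the sources used here do not describe, and levels of close copies carry that uncertainty.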

How the data were processed

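The labels' protocols describe stranded mRNA libraries read from both ends over 100 bases. Raw counts of reads per gene were deposited by the authors in 1 table per library. Trimmomatic 0.30, TopHat2 2.0.11 and HTSeq 0.11.1 are named in the submitters' processing notes. The sources used here do not state the genome build, annotation, strand setting or treatment of shared reads.

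Libraries were grouped by title. Genes kept by filterByExpr (19755) were normalized with TMM and compared by a two-sided test in edgeR 4.0.16 (glmQLFit with robust estimation, glmQLFTest) in R 4.3.3, with Benjamini-Hochberg adjustment over all of them and a threshold of 0.05. The common biological coefficient of variation was 22.9%. DESeq2 1.42.0 and limma-voom (limma 3.58.1) were alternatives, and the edgeR step was tested on simulated counts. SDs are over the libraries of a group, and SEs are the fold over the square root of edgeR's F. The smallest chi-square per gene between libraries of a group was 17.8, so none was counted as a copy. LOC numbers were named from RefSeq assembly ASM2471397v2, without coordinates, and 5666 of 14730 gained a symbol.

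The genes and lists were chosen with earlier results of these data known. Named genes were, in each ion group, the 2 with the highest mean CPM and the 2 with the smallest p, those with p under 0.05, the 5 with the widest range, and a set chosen by role. The other genes of the 43 are named to account for them, except 1 that is not reported here, and genes outside the 43 were named after their values were seen.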

Additional observations from a re-analysis of the deposited data

How the results depend on the processing

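Of the 43 genes, 0 were called in each of the 15 alternatives: DESeq2, limma-voom, scaling by RLE, upper quartiles or library totals, no filter, 1 CPM in 3 libraries, estimation without robustness, a replicate block and leaving out each library. Over all genes DESeq2 called 12 and edgeR 0, with 690 at an unadjusted p under 0.05. Leaving out 1 library gave between 0 and 3 of the 43 genes at an unadjusted p under 0.05, a median log2 fold between -0.029 and 0.031, and between 536 (without titled shy 1) and 2393 (without titled bold 1) such genes over all. The 3 without titled bold 1 were slc4a10, slc20a2 and slc8a3, the 2 without titled bold 3 or titled shy 1 were slc4a10 and slc24a2, and the 0 came without titled shy 3.

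The replicate block gave 2 of the 43 genes, slc4a10 and slc20a2, and 1160 over all, at an unadjusted p under 0.05, with 0 called. Deviations of same-numbered libraries correlated at 0.316, 0.136 and 0.0798, and 5 of 6 libraries correlated best with their own number. The main fit did not take the numbers as pairs, and whether same-numbered libraries share a batch was not tested.

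Of 344 recomputed log2 folds of 23 named genes, 325 kept their direction, 19 changed it and 0 were called; slc24a5 had no value at 1 CPM in 3 libraries. With library totals slc30a9 was -0.012. Leaving out 1 library moved slc12a2 between -0.27 and 0.17, slc24a5 between -0.55 and 0.067, slc26a3 between -0.32 and 0.40, slc30a9 between -0.063 and 0.083, slc31a1 between -0.020 and 0.13, slc31a2 between -0.10 and 0.34, slc39a12 between -0.051 and 0.28, slc40a1 between -0.41 and 0.11, slc4a1ap between -0.13 and 0.018, slc9a3r1 between -0.14 and 0.12, slc9a3r2 between -0.57 and 0.025, and slc9a5 between -0.60 and 0.24. Without a change of direction it moved slc12a9 between -0.29 and -0.10, slc24a4 between 0.028 and 0.21, slc26a11 between -0.22 and -0.023, slc26a5 between 0.011 and 0.17, slc39a14 between 0.088 and 0.31, slc8a1 between -0.11 and -0.0047, and slc9a7 between 0.051 and 0.21. The log2 fold of slc4a10 stayed between -0.46 and -0.29. Depth limited slc12a3, slc39a4, slc24a1 and slc26a9, which could not be tested.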
